A study of Mus musculus with 6 samples.

Results

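Replication-dependent histone genes encode the core histones H2A, H2B, H3 and H4 and the linker histone H1 that package newly copied DNA. They were taken here as the gene names of the deposited table that begin with Hist1h, Hist2h, Hist3h or Hist4h, which gave 70 of 33924 names. By the letter and number after the h, 6 names are of H1, 20 of H2A, 19 of H2B, 12 of H3 and 13 of H4. By the digit after Hist, 56 are Hist1, 10 are Hist2, 3 are Hist3 and 1 is Hist4. Of the Hist1 names, 55 lie between 21807632 and 24026720 on chromosome 13 (mm9), the large histone cluster, and Hist1h2al lies 27.3 Mb beyond it on the same chromosome. Their RNA was counted by bulk RNA sequencing of mouse lung in 6 libraries. The 3 control libraries (replicates 1, 2 and 3) are normal lung, and the 3 tumour libraries (replicates 1, 2 and 4) are lung tumours induced by urethane, a chemical carcinogen. All are from FVB/NJ mice, an inbred strain, which received saline or urethane at 1 g per kg by intraperitoneal injection, and the harvest time is given as 6 months. The sources used here do not give the sex or age of the mice, whether tissue was pooled or tumours were cut out of the lung, and they tie no library to an individual mouse. What a p-value sets a difference against is therefore the scatter of these 6 libraries, which may be technical in part.

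These genes are unlike almost all other protein-coding genes. They have no introns, and their messenger RNA ends in a conserved stem-loop instead of a poly(A) tail. The stem-loop is bound by SLBP, and the U7 small nuclear ribonucleoprotein guides cleavage of the precursor just after it. Transcription is driven by NPAT in nuclear histone locus bodies after phosphorylation by cyclin E and CDK2. The messages build up in S phase and are rapidly degraded when DNA synthesis ends, so they are widely used as a measure of replicating cells. Some histone genes can also make longer, polyadenylated transcripts, which are known from cells that have left the cycle. Not every name in the set is a somatic S phase gene: Hist1h1t, Hist1h2aa and Hist1h2ba encode testis histones, and Hist3h2bb-ps is a pseudogene by its name.

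Counted reads per library ran from 38996532 to 62336537, of which 7232 to 25805 were on histone names, 0.0149% to 0.0441%. Levels are given in CPM (read counts scaled to library size, with TMM factors), and levels between genes are compared only per kb of exon. Tumour replicate 1 stood apart from the other tumours: it held 25805 histone reads, and the counts of tumour libraries differed from each other by a chi-square per degree of freedom of 203 and 258 in the pairs with it and 59.1 in the pair without it. The sum of 6 markers of alveolar type 2 cells was also lower in it (26776 CPM) than in tumour replicates 2 and 4 (61320 and 47156 CPM), and was 9511 to 15843 CPM in control lung. Each result below is therefore given with and without that library where it matters. The labels name total RNA as the molecule and do not state whether poly(A) RNA was selected or ribosomal RNA removed, which sets how much of a message without a tail is seen. In bulk tissue, fewer cells of a kind and less RNA per cell cannot be told apart.

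The stem-loop itself was found, by its base pairing, downstream of the coding sequence in the GENCODE M21 transcript models of 46 of the 70 genes, in 8 versions of 16 bases. The most frequent version occurred in 26 genes. The sequences of 8 genes that the results turn on are shown as DNA, 5′ to 3′, on the gene's strand of GRCm38, with the stem-loop in capitals and 5 flanking bases on each side:

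Hist1h2bb, chr13:23747198-23747223, plus strand: ccaaaGGCTCTTTTAAGAGCCaccca

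Hist1h3d, chr13:23576239-23576264, plus strand: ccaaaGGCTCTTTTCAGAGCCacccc

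Hist3h2a, chr11:58955167-58955192, plus strand: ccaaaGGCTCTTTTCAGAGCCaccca

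Hist2h4, chr3:96262934-96262959, minus strand: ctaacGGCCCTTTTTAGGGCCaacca

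Hist1h1e, chr13:23621777-23621802, minus strand: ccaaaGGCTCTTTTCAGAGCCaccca

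Hist1h1d, chr13:23555782-23555807, plus strand: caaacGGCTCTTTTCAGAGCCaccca

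Hist1h4d, chr13:23581945-23581970, plus strand: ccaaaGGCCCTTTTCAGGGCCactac

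Hist2h2ac, chr3:96220413-96220438, minus strand: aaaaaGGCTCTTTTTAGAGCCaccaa

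The arms of 6 bases pair with each other across a loop of 4. Hist1h3d, Hist3h2a, Hist1h1e and Hist1h1d carry the frequent version, Hist1h2bb a version with another loop base that 6 genes share, and both H4 genes shown have other arms. The model of Hist1h2bb ended 23 bases after the stem-loop. Those of Hist1h3d, Hist3h2a and Hist2h4 ran on for 752, 1643 and 1257 bases.

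The question the design puts to these genes is whether their RNA differed between tumour and control lung. Summed over all 70 names, the level was 282, 221 and 208 CPM in control replicates 1, 2 and 3, and 422, 230 and 157 CPM in tumour replicates 1, 2 and 4. Tumour replicate 1 was the highest of the 6 libraries and tumour replicate 4 the lowest, so the groups overlapped fully (237 ± 39.6 CPM in control, 270 ± 137 CPM in tumour, mean ± SD, n = 3 each). Of the 70 names, 56 passed the filter on low counts and were tested with edgeR's quasi-likelihood test, adjusted over all 20001 genes tested. At an adjusted p under 0.05, 2 were higher in tumour (Hist1h2bb and Hist1h3d) and 3 lower (Hist3h2a, Hist1h2bc and Hist2h4). These 5 are 8.93% of the histone genes tested, where 42.0% of all genes tested passed in either direction, 18.1% higher and 23.8% lower. Groups did not overlap for 4 histone genes with all tumour libraries above (Hist1h2bb, Hist1h3d, Hist1h1d and Hist1h4b) and for the same 3 with all below, against 56.0% of all genes tested (26.1% above and 29.9% below). The background was thus several times the histone share in both measures. The SE of a log2 fold change had a median of 0.57 over the histone genes and 0.27 over all genes, and 9 of the 56 had an unadjusted p under 0.05.

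Fold changes nevertheless leaned upward while all 6 libraries were used: the median log2 fold change, tumour minus control, was 0.62, with 42 of 56 above 0, where all genes tested had a median of 0.013 and 50.6% above 0. The lean was smaller among genes with more reads. Over the 31 histone genes with at least 1 CPM in 3 libraries the median was 0.27, with 12 below 0. Tumour replicate 1 was the highest library for 42 of the 56 (75%), and for 27.2% of all genes tested. Without it, the median of 57 histone genes tested was -0.081 with 22 above 0. In that fit 1 gene was called higher (Hist1h2bb) and 3 lower (Hist3h2a, Hist2h4 and Hist1h1c). These were 7.02% of the histone genes, where 46.5% of all genes tested were called. Without tumour replicate 4, the lowest of the 6 libraries for 28 of the 56 genes, the median was 1.015. There 16 genes were called higher and 1 lower (28.8% of 59 tested), below the 36.5% of all genes called in the same fit. Leaving out control replicate 1 gave 4 higher and 1 lower, and leaving out control replicate 2 or 3 gave 1 of each. Of all genes tested, 34.4%, 32.1% and 31.3% were called without control replicates 1, 2 and 3. Hist1h2bb and Hist3h2a passed in every one of these 6 fits.

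**Figure D1:**
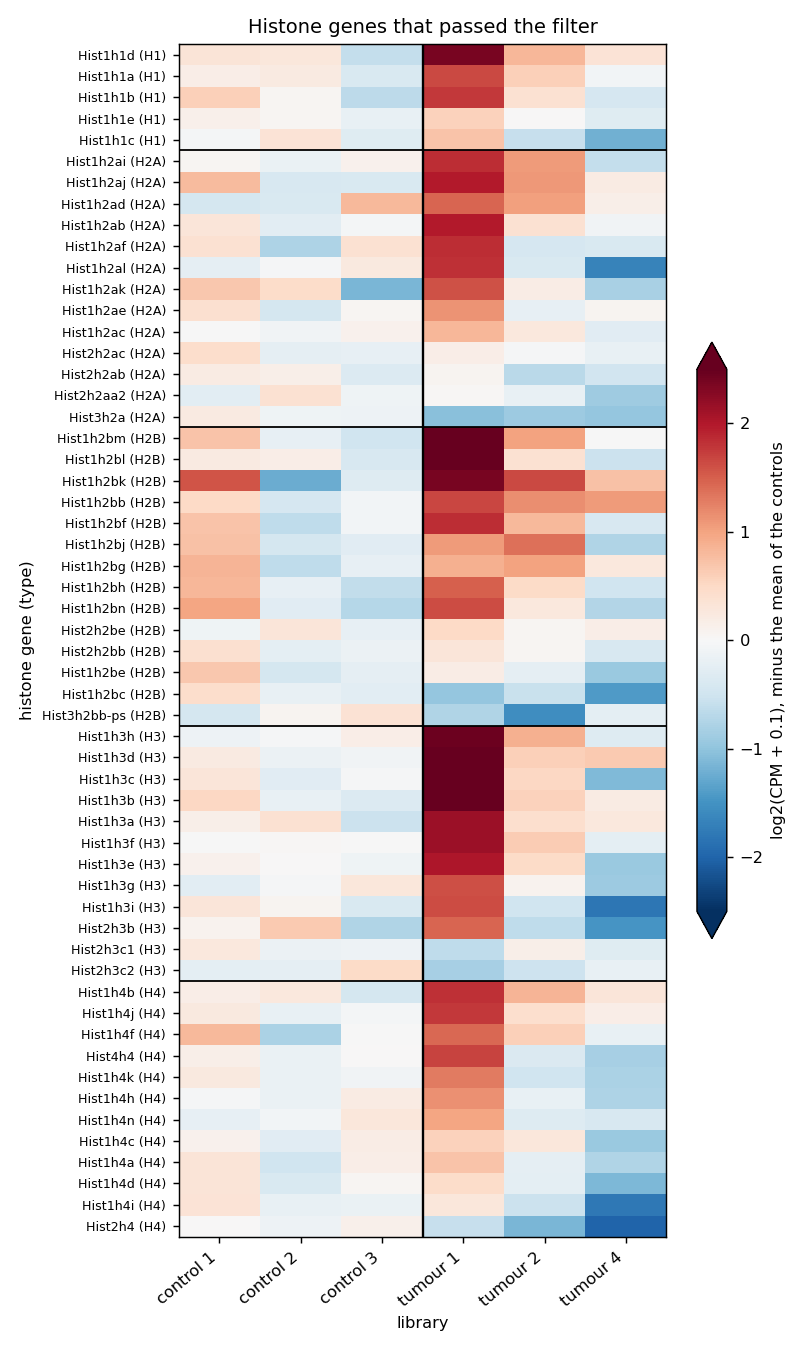
Level of each of the 56 tested histone genes (rows, by type and falling fold change) in each library (columns), as log2(CPM + 0.1) minus the mean of the 3 control libraries, with colours capped at 2.5 in either direction. The column of tumour replicate 1 is red in most rows, that of tumour replicate 2 is paler, and that of tumour replicate 4 is mostly white or blue.

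Hist1h2bb encodes an H2B and had the smallest p of the histone genes called higher. It lies on chromosome 13 at 23838603 to 23839071 (mm9, plus strand) as a gene of 1 exon. Its level was 6.95, 3.62 and 4.65 CPM in control replicates 1, 2 and 3, and 15.8, 11.1 and 10.3 CPM in tumour replicates 1, 2 and 4. All tumour libraries were above all controls, and tumour replicates 2 and 4 were close to each other. The log2 fold change was 1.29 ± 0.30 (SE, adjusted p = 0.0087, edgeR's quasi-likelihood test). It was 1.11 without tumour replicate 1, and the adjusted p over the 6 fits that left out a library lay between 0.0068 and 0.049. Of the 32-base words of its transcript, 47.2% also occur in another gene, most often Hist1h2bk. Reads that lie wholly in shared stretches may not be assigned to it alone, and the length of the reads was not taken into account. Hist1h2bk had 1.25, 0.0912 and 0.264 CPM in control and 2.24, 1.33 and 0.651 CPM in tumour.

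Hist1h3d, an H3 gene on chromosome 13 at 23667632 to 23668880 (mm9, plus strand), was the other gene called higher. Its level was 0.652, 0.486 and 0.507 CPM in control lung, and 3.96, 0.880 and 0.911 CPM in tumour replicates 1, 2 and 4. The 3 controls lay close together, and tumour replicate 1 was far above the other tumours, which were themselves above every control. The log2 fold change was 1.81 ± 0.63 (adjusted p = 0.049, edgeR's quasi-likelihood test). Without tumour replicate 1 it was 0.74 with an adjusted p of 0.13 by the same test, and the call was also lost without any of the 3 controls (adjusted p = 0.099 to 0.15).

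Hist3h2a had the smallest p among the lower genes. It encodes an H2A and lies outside the main cluster, on chromosome 11 at 58768187 to 58770176 (mm9, plus strand). Its level was 14.1, 11.2 and 10.98 CPM in control lung and 5.77, 6.37 and 6.12 CPM in the tumours, so the 3 tumours agreed closely and all were below the controls. The fold change on the log2 scale was -0.99 ± 0.19 (adjusted p = 0.0041, edgeR's quasi-likelihood test), and the adjusted p stayed between 0.0053 and 0.023 over the 6 fits without a library. Exons of Trim17 cover 35.6% of its exon bases. Since a read over both was counted for both and no strand setting was given, reads of Trim17 in that stretch cannot be told apart from its own.

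Hist1h2bc, an H2B gene with 2 exon parts on chromosome 13 (23776068 to 23784357, mm9, plus strand), measured 12.03, 7.73 and 7.31 CPM in control lung and 4.46, 5.98 and 3.25 CPM in the tumours. Every tumour was below every control. The log2 fold change was -0.98 ± 0.31 (adjusted p = 0.033, edgeR's quasi-likelihood test). The call was lost in 5 of the 6 fits that left out a library (adjusted p = 0.051 without tumour replicate 1, 0.096 without tumour replicate 4, and 0.063 to 0.13 without a control), with the log2 fold change between -0.72 and -1.22 in all 6.

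Hist2h4 encodes an H4 and lies on chromosome 3 at 96065627 to 96067234 (mm9, minus strand). Control lung had 6.79, 6.18 and 7.39 CPM, and the tumours had 4.53, 3.02 and 1.61 CPM. Here tumour replicate 1 was the tumour nearest to the controls, and without it the log2 fold change went from -1.15 ± 0.37 (adjusted p = 0.035, edgeR's quasi-likelihood test) to -1.52 (adjusted p = 0.0040). The call was lost without tumour replicate 2 or 4 (adjusted p = 0.069 and 0.061) and without any of the controls (0.079 to 0.12). Of its 32-base words, 2.3% are shared with another gene.

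**Figure D2:**
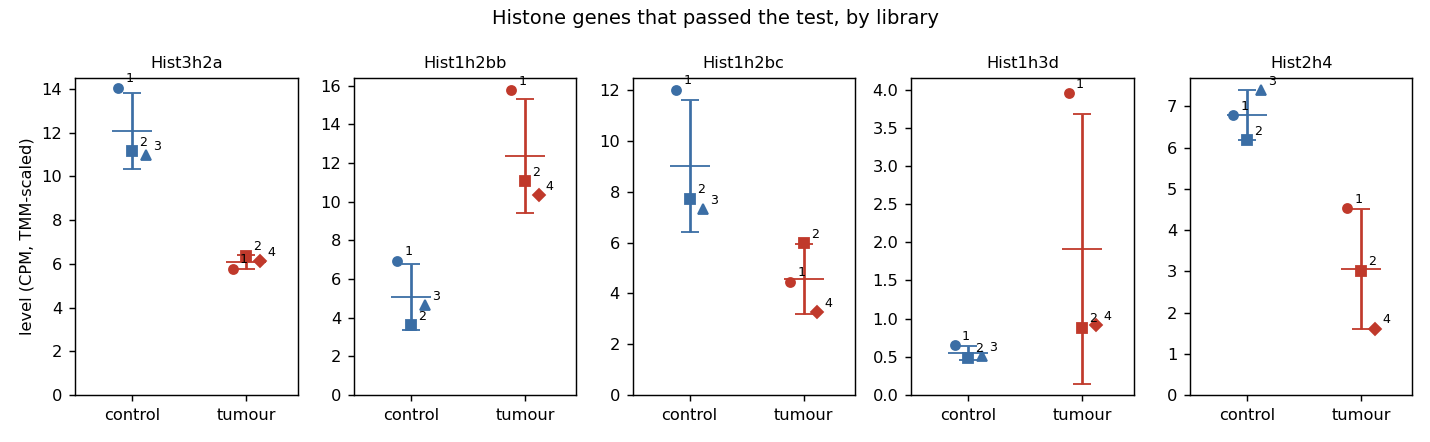
Level in CPM of the 5 histone genes that passed the test, in each library (points, numbered by replicate) with the mean and SD of each group (n = 3), each panel on its own axis from 0. Hist3h2a, Hist1h2bc and Hist2h4 lie lower in all tumour libraries and Hist1h2bb higher, while for Hist1h3d tumour replicate 1, at 3.96 CPM, is set far above the rest.

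The stretch around the start of 3 of these genes is shown from RefSeq (GRCm38.p6), 250 bases before to 50 after the transcript start, 5′ to 3′ on the gene's strand. It is joined by that of Hist1h4d, the gene with the highest level per kb. Capitals mark exact matches, on either strand, of 3 short words. CCAAT is the box bound by NF-Y, and TATAAA is a TATA box. ATTTGCAT is the octamer bound by OCT1, an element long known from H2B promoters:

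Hist1h2bb, chr13:23746484-23746783, plus strand: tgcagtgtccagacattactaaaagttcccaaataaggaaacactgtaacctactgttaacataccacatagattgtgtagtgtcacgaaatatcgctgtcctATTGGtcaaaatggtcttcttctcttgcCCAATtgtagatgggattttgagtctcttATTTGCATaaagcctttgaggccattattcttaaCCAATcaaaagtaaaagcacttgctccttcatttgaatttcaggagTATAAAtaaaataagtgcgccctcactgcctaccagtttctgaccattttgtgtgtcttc

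Hist1h3d, chr13:23575513-23575812, plus strand: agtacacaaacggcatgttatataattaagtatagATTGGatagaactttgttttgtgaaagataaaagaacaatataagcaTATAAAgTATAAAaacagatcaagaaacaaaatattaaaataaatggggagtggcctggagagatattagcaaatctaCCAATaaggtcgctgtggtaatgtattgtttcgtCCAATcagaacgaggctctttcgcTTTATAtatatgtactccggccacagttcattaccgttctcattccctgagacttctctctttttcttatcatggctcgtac

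Hist3h2a, chr11:58954435-58954734, plus strand: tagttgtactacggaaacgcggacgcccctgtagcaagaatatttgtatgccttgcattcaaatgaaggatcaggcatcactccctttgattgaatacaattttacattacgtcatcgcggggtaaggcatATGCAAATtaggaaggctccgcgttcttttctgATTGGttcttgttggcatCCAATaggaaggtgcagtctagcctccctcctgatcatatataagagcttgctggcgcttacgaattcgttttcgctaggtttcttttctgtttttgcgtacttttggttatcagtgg

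Hist1h4d, chr13:23581318-23581617, plus strand: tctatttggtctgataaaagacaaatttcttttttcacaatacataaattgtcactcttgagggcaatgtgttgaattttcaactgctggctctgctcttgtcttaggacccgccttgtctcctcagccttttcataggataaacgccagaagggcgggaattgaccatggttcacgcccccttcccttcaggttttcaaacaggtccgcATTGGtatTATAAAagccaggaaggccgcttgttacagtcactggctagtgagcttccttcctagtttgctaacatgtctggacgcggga

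Both Hist1h2bb, higher in tumour, and Hist3h2a, lower in tumour, hold CCAAT and the octamer in these windows. Hist1h3d holds CCAAT as well as TATAAA, and in Hist1h4d the latter begins 32 bases before the start. Over the 61 histone genes with a promoter in the RefSeq table, CCAAT occurred in 52, TATAAA in 35 and the octamer in 13. The shares over all 27025 promoters of the same length were 37.9%, 14.2% and 1.75%. CCAAT was in every promoter of H1 (6), H2A (17), H2B (16) and H3 (10), and in 3 of 12 of H4 (Hist1h4a, Hist1h4c and Hist1h4d). All 13 promoters with the octamer belonged to H2A (7) or H2B (6). Windows of head-to-head genes can overlap, as for Hist1h2ae with Hist1h2bg and Hist1h2ah with Hist1h2bk. A word in a shared stretch was then counted for both genes, on either strand, and may belong to the partner. These counts and the medians below are thus not of separate stretches of DNA. The median log2 fold change was 0.58 over the 10 tested genes with the octamer and 0.62 over the 38 without it. With and without TATAAA it was 0.63 and 0.61, and with and without CCAAT 0.63 and 0.51, so with all libraries the medians lay close together for each of the 3 words. Without tumour replicate 1 they were 0.14 and -0.18 with and without the octamer, 0.022 and -0.18 for TATAAA, and -0.060 and -0.43 for CCAAT.

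By histone type, H3 had the highest ratio of tumour replicate 1 to the control mean. Summed over its 12 names, H3 stood at 11.3, 10.03 and 9.44 CPM in control lung and at 41.2, 13.2 and 7.48 CPM in tumour replicates 1, 2 and 4. Tumour replicate 1 was at 4.02 times the control mean, while the mean of the other 2 tumours was at 1.009 times. For H1 the sums were 86.5, 93.4 and 66.6 CPM in control and 160, 77.3 and 56.0 CPM in tumour. For H4 they were 59.6, 41.0 and 52.8 CPM against 87.0, 43.0 and 24.3 CPM. H2B ran from 57.2 to 99.5 CPM in control and from 56.0 to 109 CPM in tumour, and H2A from 19.0 to 25.3 CPM and from 13.1 to 24.6 CPM. In all 5 types tumour replicate 1 was the highest tumour and tumour replicate 4 the lowest, and the ranges of the groups overlapped. For H2A tumour replicate 1 lay inside the control range. Of the mean histone CPM, not scaled for exon length, H1 made up 34.7% in control and 36.3% in tumour, and H2B 30.5% and 30.4%. H4 made up 21.6% and 19.1%, H2A 8.95% and 6.66%, and H3 4.32% and 7.65%. These shares compare the groups within a type, not the types with each other.

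**Figure D3:**
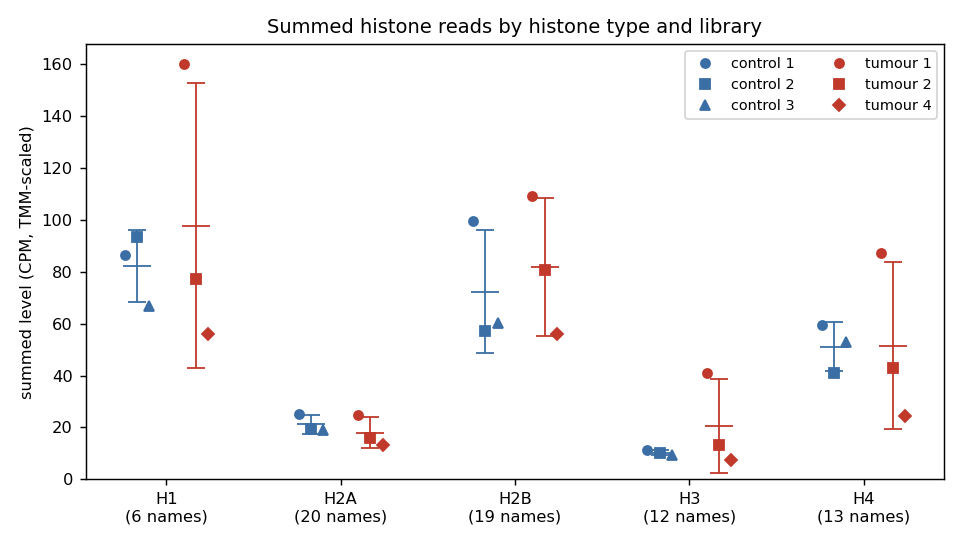
Summed level in CPM of all names of each histone type in each library (points), with the mean and SD of each group (n = 3). In every type tumour replicate 1 is the highest tumour and tumour replicate 4 the lowest, and for H3 tumour replicate 1 (41.2 CPM) is far above the other 5 libraries (7.48 to 13.2 CPM).

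Among the H3 genes, all 12 were tested, 10 had a log2 fold change above 0 and the median was 1.13. It was -0.031 without tumour replicate 1, with 5 of 12 above 0. Only Hist1h3d was called, whereas without tumour replicate 4 the calls numbered 6 of 12, where 36.5% of all genes tested were called. The 4 with the highest level per kb were Hist1h3e (3.48 CPM per kb), Hist1h3f (3.21), Hist1h3c (2.88) and Hist1h3b (2.27), all in the Hist1 cluster. Hist1h3f had 1.93, 1.96 and 1.91 CPM in control and 8.89, 3.07 and 1.61 CPM in tumour. Its controls were nearly the same while its tumours spread over more than 5 times, and the adjusted p was 0.12. Hist1h3e showed 2.06, 1.91 and 1.77 CPM against 8.06, 2.69 and 0.954 CPM. Hist1h3c showed 1.09, 0.699 and 0.853 CPM against 6.62, 1.27 and 0.347 CPM, and Hist1h3b 1.00, 0.577 and 0.507 CPM against 4.54, 1.04 and 0.781 CPM. In all 4 the order of the tumours was the same, replicate 1, then 2, then 4, and only in Hist1h3b did tumour replicate 4 not fall below every control. Their adjusted p lay between 0.095 and 0.24. Without tumour replicate 4 all 4 were called. Hist1h3h had the largest fold change of the type that was not called (1.84 ± 0.80, adjusted p = 0.0995, edgeR's quasi-likelihood test). It was 0.61 without tumour replicate 1, and was called without tumour replicate 4 (adjusted p = 0.021, edgeR).

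H4 held the most abundant histone gene per kb, Hist1h4d, at 50.9 CPM per kb of exon. Its level was 26.2, 16.2 and 21.8 CPM in control and 28.7, 17.6 and 9.59 CPM in tumour, with a log2 fold change of -0.20 ± 0.37 and fully overlapping groups. Hist4h4, the only Hist4 gene, came next at 27.4 CPM per kb. It lies on chromosome 6 and had 7.50, 6.02 and 6.84 CPM in control and 21.9, 5.26 and 3.77 CPM in tumour, so that tumour replicate 1 was above and tumour replicates 2 and 4 below all controls. Hist1h4c (12.2 CPM per kb) had 4.97, 3.74 and 5.22 CPM against 6.91, 5.64 and 2.36 CPM. Hist1h4f (9.54 CPM per kb) had 4.67, 1.49 and 2.60 CPM against 7.27, 4.06 and 2.30 CPM. None of these 4 was called (adjusted p = 0.36 to 0.86). Over the 12 tested H4 genes the median log2 fold change was 0.28 with 9 above 0, and -0.48 with 3 above 0 without tumour replicate 1. Over the 8 with at least 1 CPM in 3 libraries the median was 0.034 with 4 above 0. Hist1h4b, whose tumour levels of 1.75, 0.844 and 0.542 CPM were all above its control levels of 0.489, 0.532 and 0.284 CPM, had an adjusted p of 0.083, and of 0.23 without tumour replicate 1 and 0.041 without tumour replicate 4 (edgeR). Exons of 4930558J22Rik cover 60.9% of it.

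H1 genes encode the linker histone that binds DNA between nucleosomes, and 5 of 6 were tested with none called by edgeR's quasi-likelihood test. Hist1h1d had an unadjusted p of 0.027 there and was called by DESeq2. Hist1h1e was the most abundant at 49.3 CPM per kb, close to Hist1h4d, with 38.3, 36.4 and 30.8 CPM in control and 52.4, 35.1 and 28.3 CPM in tumour. Hist1h1c (21.04 CPM per kb) had 32.9, 43.0 and 27.7 CPM against 55.7, 22.8 and 14.7 CPM. Its log2 fold change of -0.15 ± 0.44 was not called, and became -0.84 (adjusted p = 0.019, edgeR's quasi-likelihood test) without tumour replicate 1. Hist1h1a (6.13 CPM per kb) measured 3.53, 3.68 and 2.40 CPM against 10.1, 4.83 and 2.99 CPM. Hist1h1b (4.89 CPM per kb) measured 3.83, 2.60 and 1.54 CPM against 8.69, 3.29 and 1.84 CPM. Both had the tumours in the order of replicates 1, 2 and 4, with the lowest tumour inside the control range, and Hist1h1a was called without tumour replicate 4 (adjusted p = 0.040, edgeR). In Hist1h1d all tumours, at 32.8, 11.1 and 7.89 CPM, were above the controls at 7.82, 7.596 and 4.10 CPM, by a narrow margin for tumour replicate 4 (log2 fold change 1.41 ± 0.53, adjusted p = 0.062, edgeR's quasi-likelihood test). The value was 0.58 without tumour replicate 1 (adjusted p = 0.15, edgeR), and it was called at 1.65 without tumour replicate 2 (adjusted p = 0.041) and at 1.76 without tumour replicate 4 (adjusted p = 0.022). The testis gene Hist1h1t was below the filter, with 2, 6 and 3 reads in control and 16, 10 and 10 reads in tumour.

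H2A genes had low levels, and 13 of 20 were tested. The most abundant per kb were Hist2h2ac (6.57 CPM per kb), Hist3h2a (4.56), which was called lower, Hist2h2ab (3.602) and Hist1h2aj (2.62). Hist2h2ac had 4.62, 2.87 and 2.90 CPM in control and 3.82, 3.30 and 2.97 CPM in tumour, inside the control range in every tumour (log2 fold change -0.037 ± 0.29). Hist2h2ab had 1.82, 1.75 and 1.22 CPM against 1.65, 0.952 and 1.11 CPM, and all of its exon bases lie in exons of Gm15444. Hist1h2aj had 1.00, 0.380 and 0.386 CPM against 2.42, 1.26 and 0.629 CPM (adjusted p = 0.11, and 0.0498 without tumour replicate 4, edgeR). Over the 13, the median log2 fold change was 0.59 with 9 above 0, and all 9 were Hist1 names, Hist1h2al included. Without tumour replicate 1 it was -0.11 with 5 of 13 above 0, and over the 3 with at least 1 CPM in 3 libraries it was -0.38. No read fell on Hist1h2aa, Hist1h2ao, Hist1h2ap or Hist2h2aa1 in any library. Where no read was counted, up to 3 reads remain possible, 0.0456 to 0.0815 CPM per library, and this covers counting error only. Hist1h2ao, Hist1h2ap and Hist2h2aa1 share 93.8%, 93.3% and 100% of their 32-base words with other genes. Reads that fit several copies may be missing there, so the lack of reads does not show that these genes were silent.

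H2B genes numbered 19, of which 14 were tested. Hist1h2bb, called higher, and Hist2h2bb were the most abundant per kb (18.6 CPM per kb each). Hist2h2bb had 36.7, 23.3 and 24.9 CPM in control and 34.4, 28.5 and 21.1 CPM in tumour, with a log2 fold change of -0.015 ± 0.24. All 32-base words of its M21 model of 381 bases occur in Gm20628, but it was counted over 1511 exon bases. In the stretch compared, its value may include reads of that gene or lack reads that fit both. The rest of the counted exons was not compared. Hist1h2bg (9.66 CPM per kb) had 7.71, 2.70 and 3.67 CPM in control and 7.96, 8.64 and 5.14 CPM in tumour. Control replicate 1 was more than 2 times the other controls there, and without it the log2 fold change went from 0.63 ± 0.41 (adjusted p = 0.25, edgeR's quasi-likelihood test) to 1.19 (adjusted p = 0.035). Hist1h2bc followed at 9.23 CPM per kb. The median over the 14 was 0.63 with 10 above 0, and -0.00032 over 15 without tumour replicate 1. Hist1h2bq and Hist1h2br had no read in any library, and the testis gene Hist1h2ba had 2 reads, both in tumour replicate 1. Hist1h2bq and Hist1h2br share 98.2% and 89.5% of their words with other genes, so the same limit holds for them.

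**Figure D4:**
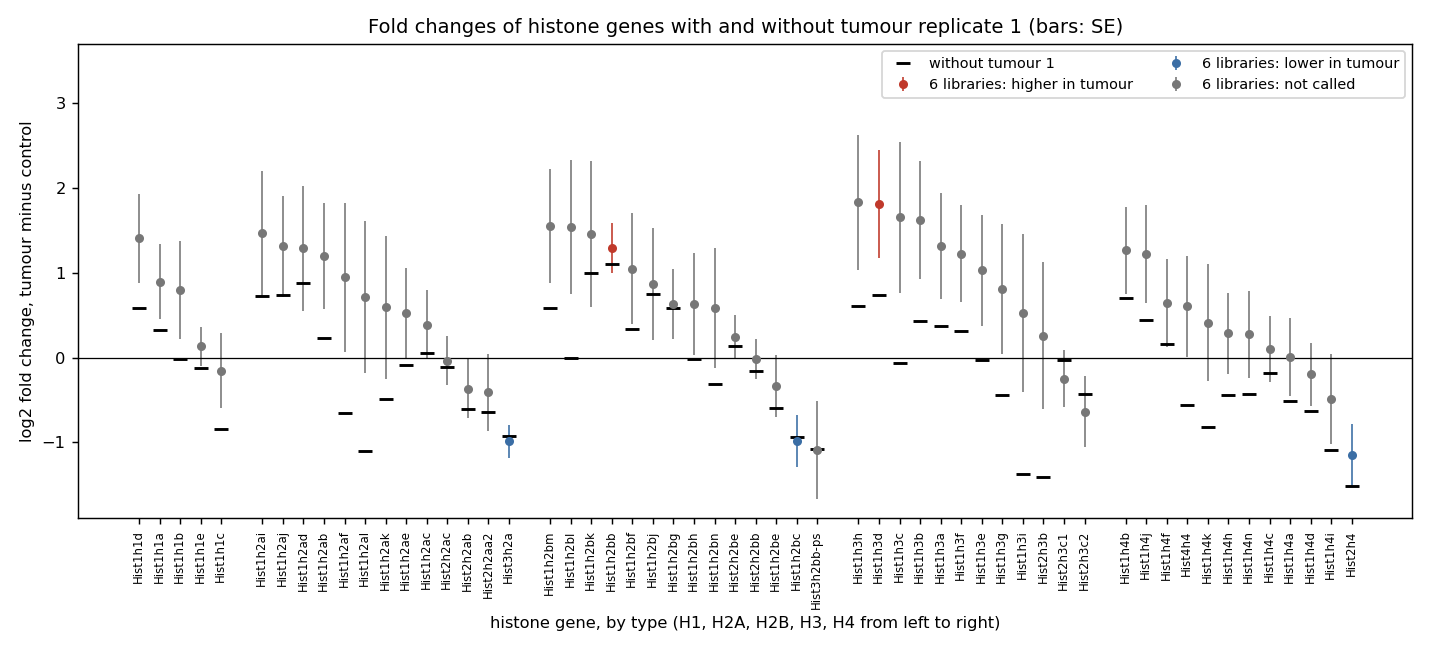
Log2 fold change of each tested histone gene, tumour minus control, with its SE (points and bars, 6 libraries), and the fold change without tumour replicate 1 (black dashes), ordered by type and fold change. Most dashes of H1, H3 and H4 genes lie well below their points, while those of Hist1h2bb, Hist3h2a and Hist1h2bc lie near them.

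By the digit in the name, fold changes lay highest among the Hist1 genes. Of the 44 tested Hist1 genes, 39 had a log2 fold change above 0 with a median of 0.84. Among the 9 tested Hist2 genes 2 were above 0 (Hist2h2be and Hist2h3b) with a median of -0.25, and both tested Hist3 genes were below 0 (-0.99 for Hist3h2a and -1.09 for Hist3h2bb-ps). Without tumour replicate 1 the Hist1 median was -0.0062 with 21 of 44 above 0, the Hist2 median -0.43 and the Hist3 median -1.08. The gap between the Hist1 and the Hist3 genes was thus present with and without that library, whereas the Hist1 median was near 0 without it. Under each of the other scalings tried, the medians of these classes and of the types kept their sign. The summed level of the Hist3 genes was 14.6, 11.7 and 11.7 CPM in control and 6.06, 6.48 and 6.49 CPM in tumour, nearly all of it from Hist3h2a. For Hist2 the sums were 57.1, 42.5 and 43.0 CPM against 53.3, 42.9 and 33.5 CPM. No test of the difference between these classes was made, since the members were chosen with results known.

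Many H2A and H2B genes stand head to head and share the stretch between their starts. In the deposited coordinates 13 such pairs start 167 to 305 bases apart. The H2B gene was above its H2A partner per kb in 9 pairs, and both had no read in 2 (Hist1h2ao with Hist1h2bq, and Hist1h2ap with Hist1h2br). Both genes were tested in 7 pairs. In 4 of these both log2 fold changes were above 0, as in Hist1h2ak and Hist1h2bn (0.59 each), and in 1 both were below (Hist3h2a and Hist3h2bb-ps). Without tumour replicate 1 both were above 0 in 1 of the 7 (Hist1h2bf and Hist1h2ad), and Hist1h2ak and Hist1h2bn were at -0.48 and -0.31. The widest contrast was between Hist1h2ac (0.305 CPM per kb, log2 fold change 0.39) and Hist1h2bc (9.23 CPM per kb, -0.98), 250 bases apart. In the pair of Hist2h2ac and Hist2h2be the values were -0.037 and 0.24.

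Since the longer models differ in how their RNA may end, the genes were also described by transcript model. The 17 tested genes whose model ended within 100 bases of the stem-loop had a median log2 fold change of 1.20, with 15 above 0. Those whose model ran past it by 100 bases or more numbered 21, with a median of 0.13 and 13 above 0. In 18 no stem-loop was found in the model, with a median of 0.59 and 14 above 0. Without tumour replicate 1 the medians were 0.33 (11 of 17 above 0), -0.15 (6 of 22) and -0.40 (5 of 18), so the genes with short models kept the highest median of the 3. Transcript model and cluster were not separated here. With all libraries, Hist2h2ac and Hist2h2aa2 were below 0 among genes with short models. Hist2h3c1, Hist2h3c2, Hist2h4 and Hist3h2a were below 0 among those with longer models. Over all names, tested or not, the summed level of the genes with longer models was 184, 155 and 143 CPM in control and 267, 142 and 95.7 CPM in tumour. Genes with short models summed to 29.4, 17.0 and 20.2 CPM in control and to 67.7, 33.8 and 23.4 CPM in tumour. Most histone reads therefore lay on genes of the class with longer M21 models. In their sum tumour replicate 2 was level with the lowest control and tumour replicate 4 was below it. Reads were counted on GENCODE vM1 exons, which can differ: Hist4h4 runs 2445 bases past the stem-loop in M21 but was counted over 312 bases. The sums are not scaled for exon length (median 836 bases, and 519 for short models). Whether the reads came from longer transcripts was not tested. In the sum of genes with short models, tumour replicates 1 and 2 were above every control and tumour replicate 4 was inside the control range. Of the 5 called genes, Hist3h2a and Hist2h4, both lower, have a poly(A) signal (AATAAA or ATTAAA) within the last 50 bases of the model. No poly(A) signal is there in the model of Hist1h3d, which was higher. The model of Hist1h2bb, also higher, ended 23 bases after the stem-loop, too short for this search. Hist1h2bc was a gene with no stem-loop in its model.

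**Figure D5:**
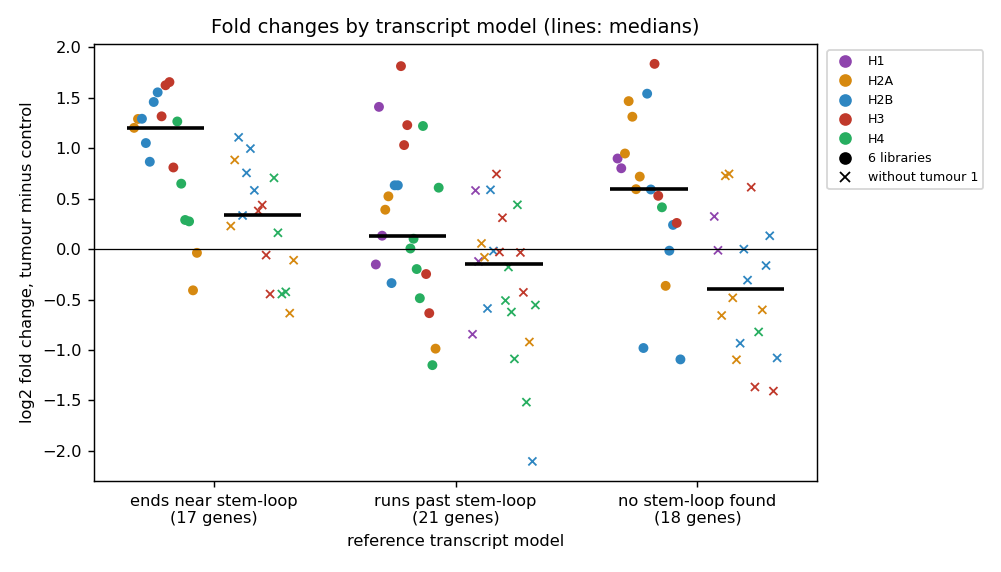
Log2 fold change of histone genes grouped by their GENCODE M21 transcript model, with all 6 libraries (dots) and without tumour replicate 1 (crosses), coloured by type, with the median of each as a line. Numbers of genes are those of the fit with 6 libraries. The genes whose model ends near the stem-loop have the highest median both ways (1.20 and 0.33).

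Sequence that also occurs under other gene names limits what many of these genes can show. In 26 of the 70, more than 75% of the 32-base words occur in another gene. In 5, all of these words do (Hist2h2aa1, Hist2h2aa2, Hist2h2bb, Hist2h3b and Hist2h3c1). A shared word can come from a copy elsewhere or from another name annotated over the same place, and these were not separated. Hist2h2bb, an H2B gene, and Hist2h3b, an H3 gene, both share all their words with Gm20628. Multi-mapping reads were not requested in the counting, per the file header. Reads that fit several copies may thus be missing from the counts, and levels of genes with copies are uncertain. The 13 tested genes with 75% to under 100% of their words shared had a median log2 fold change of 1.03, all above 0. All 21 names of this class summed to 6.66 to 10.54 CPM in control and 5.12 to 33.5 CPM in tumour. The 11 tested genes with up to 25% shared had a median of 0.24 with 7 above 0, and all 12 names of that class summed to 92.8 to 120 CPM in control and 57.1 to 192 CPM in tumour. In both classes tumour replicate 1 was the highest library and the median was below 0 without it (-0.029 and -0.18). Fold changes did not simply rise with the share of words. The 28 tested genes with 25% to 75% shared had a median of 0.64 with 21 above 0. The 4 tested genes with all words shared had a median of -0.13 with 1 above 0. Exons of another name overlap 9 of the 70 genes.

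Among genes that make and handle histone messages, the calls were all higher in tumour, and are set here against the 18.1% of all genes called higher. Of 18 genes of histone pre-mRNA processing and decay, 5 were called higher and none lower by edgeR's quasi-likelihood test (27.8%, against 18.1% of all genes called higher and 42.0% called in either direction). Slbp, whose product binds the stem-loop, had 14.99, 17.02 and 11.06 CPM in control and 21.9, 20.7 and 23.0 CPM in tumour (log2 fold change 0.61 ± 0.19, adjusted p = 0.034). All 3 tumours, tumour replicate 4 included, were above the controls. Cpsf3, the endonuclease that cuts the precursor, was higher in tumour by a log2 value of 1.07 ± 0.19 (adjusted p = 0.0026, edgeR), and Cpsf2, its partner in the cleavage complex, by 0.64 ± 0.17 (adjusted p = 0.015). Zfp473, a component tied to the U7 particle, and Ncbp2, a subunit of the cap-binding complex, were also higher (1.40 ± 0.44 and 0.63 ± 0.17). Lsm10 and Lsm11, the proteins particular to the U7 particle, had log2 fold changes of -0.013 and 0.018 and were not called. At an unadjusted p under 0.05, edgeR had 1 gene of this list lower, Zcchc6 (log2 fold change -0.33, adjusted p = 0.097), and DESeq2 called 7 higher and none lower. Without control replicate 1, 2 or 3 edgeR called 2, 3 and 1 genes higher, without tumour replicate 4 it called 3, and without tumour replicate 1 it called 6.

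Npat, the activator of histone genes, stood at 44.2, 41.2 and 40.6 CPM in control and 44.7, 42.3 and 44.4 CPM in tumour (log2 fold change 0.060 ± 0.13, adjusted p = 0.73, edgeR). Its groups overlapped and hardly differed in level. Of the 13 genes of histone gene transcription 4 were higher and none lower (30.8%, against the same 18.1%). These were E2f3, an activator of S phase genes (1.40 ± 0.19), Cdk2, which phosphorylates NPAT (0.93 ± 0.16), Kat2a, a histone acetyltransferase (0.97 ± 0.26), and Nfya, a subunit of the CCAAT-binding factor (0.40 ± 0.13). Among 22 histone chaperones 7 were higher and none lower (31.8%, against 18.1%, and 11 higher by DESeq2): Rbbp7, Ipo4, Chaf1b, Nasp, Asf1b, Hat1 and Rbbp4. Rbbp7, a histone-binding subunit of several chromatin complexes, was higher by 0.94 ± 0.14 (adjusted p = 0.0011, edgeR). Ipo4, an importin that carries histones into the nucleus, was higher by 0.78 ± 0.16 (adjusted p = 0.0056, edgeR). In neither list did edgeR have a gene lower at an unadjusted p under 0.05, or DESeq2 call a gene lower. Over all 6 lists the calls numbered 25 higher and 1 lower with all libraries, and 26 and 2 without tumour replicate 1. Without control replicate 1, 2 or 3 they numbered 13, 12 and 11 higher. In the transcription list 2, 2 and 3 were then called, and among the chaperones 6, 4 and 4.

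The S phase genes outside the histone family, such as the Mcm helicase subunits, also had their highest level in tumour replicate 1. Their sum over 16 genes was 233, 247 and 205 CPM in control and 426, 277 and 274 CPM in tumour, and tumour replicate 1 was the highest library for 16 of 16. In tumour replicates 2 and 4 that sum was above all controls, whereas the histone sum was inside the control range in tumour replicate 2 and below it in tumour replicate 4. Of the 16, 6 were called higher and none lower by edgeR (37.5%, against 18.1% of all genes, with none lower at an unadjusted p under 0.05) and 6 higher by DESeq2. The smallest p were those of Ccna2, the S phase cyclin A (1.24 ± 0.22, adjusted p = 0.0023), and Tyms, thymidylate synthase (1.06 ± 0.23, adjusted p = 0.0059). Mcm4 and Pcna, with log2 fold changes of 0.084 and 0.23, were not called. Leaving out any of the 3 controls gave 2 calls, and leaving out tumour replicate 1 gave 6.

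Histone variants listed here as replication-independent numbered 11, of which 10 were tested. Of these, 3 were higher and 1 lower (40% called, against 42.0% of all genes in either direction). H2afz, which encodes H2A.Z, rose from 25.5 ± 4.38 CPM to 42.7 ± 5.73 CPM (log2 fold change 0.74 ± 0.18, adjusted p = 0.012, edgeR). H2afx (1.05 ± 0.33) and H2afj (0.86 ± 0.27) were the others called higher. H2afy2, which encodes a macroH2A, fell by 2.60 ± 0.26 on the log2 scale, from 5.84, 5.86 and 7.21 CPM to 1.13, 1.02 and 0.954 CPM (adjusted p = 1.3e-04, edgeR). This was the largest change among the variants, and its tumour libraries were nearly alike. Without any 1 of the controls 1 variant was called higher in place of 3, and H2afy2 was called lower in all 6 fits without a library. H3f3b, the most abundant variant gene per kb (98.0 CPM per kb), had 360, 304 and 266 CPM in control and 251, 268 and 302 CPM in tumour.

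Other RNAs without a poly(A) tail were listed as a check on how such RNA was captured. Of 16 names 6 matched, and none was called by edgeR, while 3 (Snora73b, Scarna13 and Scarna6) were lower at an unadjusted p under 0.05 and DESeq2 called Snora73b and Scarna6 lower. Without control replicate 2, edgeR called 4 lower (Snora73a with those 3), and without tumour replicate 1 it called Scarna6. The sum was 1918, 755 and 2051 CPM in control and 664, 1114 and 895 CPM in tumour, so control replicate 2 was far below the other controls and inside the tumour range. In that sum tumour replicate 1 was the lowest library, the reverse of its place among the histone genes. Most of the sum came from Snora73a and Snora73b (248 and 322 CPM in tumour replicate 1). Tumour replicate 1 was the lowest library for these and Scarna13, but the highest for Snord118 (13.6 CPM). For U7 and Scarna6 it was neither. Whether capture of RNA without a tail moved the histone values was not tested.

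Markers of cell types changed with the groups as well. All 6 alveolar type 2 markers were higher in tumour. All 3 club cell, 4 ciliated, 5 endothelial, 6 T and NK cell and 5 neutrophil markers were lower, as were 4 of 5 of alveolar type 1, 4 of 5 of B and plasma cells, 4 of 5 of fibroblasts, and 2 of 3 tested erythroid markers. Endothelial markers summed to 2673 to 3533 CPM in control and 178 to 263 CPM in tumour, and T and NK markers to 34.1 to 52.5 CPM and 1.68 to 6.61 CPM. The sums were 9705 to 16345 CPM and 13.1 to 33.4 CPM for club cells, and 34.6 to 48.7 CPM and 0.108 to 0.197 CPM for ciliated cells. For alveolar type 1 cells they were 1646 to 1725 CPM and 356 to 418 CPM, and for fibroblasts 722 to 867 CPM and 158 to 319 CPM. Neutrophil markers gave 259 to 461 CPM and 4.45 to 28.3 CPM, B and plasma cell markers 197 to 302 CPM and 27.4 to 267 CPM, and erythroid markers 21.02 to 461 CPM and 16.2 to 28.2 CPM. Of 6 testis germ cell markers 2 were tested and both were lower (15.2 to 23.5 CPM and 9.99 to 11.4 CPM). Tnp1, a germ cell marker, had no read in the controls, and no other marker had none in all libraries of a group. The part of this change in cell makeup in the levels of the histone genes was not tested.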

How the data were processed

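The deposited values are raw counts of reads for each gene name in each library. They were made by the authors with featureCounts 1.6.5 on the exons of GENCODE vM1 (mm9 coordinates), per the file headers, counting a read for every name it overlaps, with no strand setting and multi-mapping reads not requested. Named in the submitters' processing notes are STAR, edgeR, limma and R 3.6.0, and the builds GRCm38 and mm9. No aligner version and no RNA selection is stated in the sources used here.

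The whole table was fitted in R 4.3.3 with edgeR 4.0.16: filterByExpr (minimum count 10), TMM, a quasi-likelihood F test on group alone, and Benjamini-Hochberg adjustment over 20001 genes, called at an adjusted p under 0.05. The script was tested on simulated data. Alternatives were DESeq2 1.42.0, limma-voom (limma 3.58.1), other scalings, filters and thresholds, a replicate block, and each library left out. No list or sum over members was given a test.

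Members and lists were chosen with earlier results of these data known. Genes named are the 4 highest per kb in each histone type, the 2 smallest p in each direction, and every member of a count of 5 or fewer. For the lists of histone processing, transcription, variants, chaperones, S phase, RNAs without a tail and 11 cell types, they are the 2 smallest p, Slbp, Npat and small counts. A few genes are named besides, chosen after their values were seen: Hist1h3h, Hist1h1t, Hist1h2ba, Lsm10, Lsm11, Zcchc6, Mcm4, Pcna, Hist1h2bk, Hist1h2ak, Hist1h2bn, Hist1h2ac, Hist1h2al, Hist1h2ad, Hist1h2bf, H3f3b and 5 of the chaperones called. Shared words are 32-base words of all GENCODE M21 transcripts of a gene that also occur, on either strand, in a transcript of another gene name. Promoters are from RefSeq (GRCm38.p6), with 69 names matched to a RefSeq symbol and 61 to a promoter.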

Additional observations from a re-analysis of the deposited data

How the results depend on the processing

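The 2 genes called higher became 5 with DESeq2, 4 with no low-count filter, and 1 with limma-voom, with library totals only, with at least 1 CPM in 3 libraries and at an adjusted p under 0.01. The 3 called lower became 1 at an adjusted p under 0.01. Against a 2-fold threshold 0 histone genes were called in either direction by edgeR, with 0 at an unadjusted p under 0.05, and DESeq2 without that threshold called 8. Of all genes tested, 19.8% were called against that threshold, and 45.5% by DESeq2 without it. Over the fits that left out a library, the calls ran from 1 to 16 higher and from 1 to 3 lower. The 25 list genes called higher became 10 with library totals only, 9 at an adjusted p under 0.01 and 1 against a 2-fold threshold, and ran from 11 to 26 without a library. The 1 called lower became 3 with DESeq2, 4 with library totals only and 2 with at least 1 CPM in 3 libraries, and ran from 1 to 5 without a library. With library totals only, the median log2 fold change of all genes was -0.10 in place of 0.013, and that of the histone genes 0.57 in place of 0.62. The log2 ratio of summed H3 levels was 1.009, and ran from 0.013 (without tumour replicate 1) to 1.41 without a library.

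Replicate numbers 1 and 2 occur in both groups, but the deviations of same-numbered libraries correlated at -0.18 and -0.0086 across genes, so the number was not taken to pair them. With a replicate block, which leaves 1 residual degree of freedom, 0 histone genes were called by edgeR in either direction (9 at an unadjusted p under 0.05) and 1 list gene was called higher. Of all genes tested, 18.2% were called with that block.

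Of the named histone genes, none of those called changed direction under any alternative. Some that were not called did. With limma-voom the log2 fold change was 0.028 for Hist2h2ac and 0.016 for Hist2h2bb, which was also 0.0011 with upper quartile scaling and 0.097 with the replicate block. Hist1h4d was at 0.13 with the replicate block. Over the fits without a library the values ran from -0.012 to 1.19 for Hist1h1b, -0.84 to 0.19 for Hist1h1c, -0.12 to 0.32 for Hist1h1e, -0.059 to 2.18 for Hist1h3c, -0.029 to 1.499 for Hist1h3e, -0.18 to 0.45 for Hist1h4c, -0.62 to 0.12 for Hist1h4d, -0.15 to 0.22 for Hist2h2ac, -0.16 to 0.22 for Hist2h2bb and -0.55 to 1.014 for Hist4h4. The causes were not tested.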
